A study of Mus musculus with 14 samples.

Results

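MHC class II genes were followed through the B cell response of the mouse spleen together with Ciita, which switches them on, and Marchf1, which removes their product from the cell surface. The set holds 10 of the 18193 genes measured: Ciita, H2-Aa, H2-Ab1, H2-Eb1, Cd74, H2-DMa, H2-DMb2, H2-Oa, H2-Ob and Marchf1. They were chosen by gene symbol and not by a filter on their values, but with earlier results of these data known. They are read by 22 probe sets. The brightest probe set of a gene gave its value and the others served as a check.

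The 14 arrays held RNA of B cells sorted from spleens of male C57Bl/Ka mice. Naive cells (3 arrays) came from unimmunized mice aged 4 to 8 weeks and were B220+ CD23+ IgM-low IgD+ lambda+. The other mice had received the hapten conjugate NP-CGG in alum into the peritoneum, and their sorted cells bound NP. Plasma cells (4 arrays) were taken on day 7 at an age of 5 to 9 weeks as B220-low, IgM-low, lambda+, syndecan-1+ and PNA- cells. Germinal center cells (3 arrays) were taken on day 14 at 6 to 10 weeks as B220+, lambda-low, CD38-low and PNA+ cells with low or no IgM. Memory cells (4 arrays) were taken 10 to 12 weeks after immunization at 14 to 18 weeks as B220+, CD38-high, lambda+ and PNA- cells without IgM and IgD. The dose was 100 µg, except that the label of plasma array 1 states none. All sorts left out cells with CD3, CD4, CD5, CD8, CD11b, Gr-1 or Ter119, and none used a class II protein. Age and time after immunization rise with the subset compared and cannot be told apart from it.

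MHC class II molecules are alpha and beta chain pairs that carry peptides of endocytosed protein to the cell surface, where CD4 T cells read them. In B cells this is how T cell help is obtained. The pairs are assembled with the invariant chain (Cd74), loaded with peptide by H2-DM, restrained by the DM inhibitor H2-DO, and taken back for degradation through the ubiquitin ligase Marchf1. The coactivator Ciita does not bind DNA itself. It is recruited to class II promoters by RFX, CREB and NF-Y proteins that sit on the conserved X and Y boxes.

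Of the 10 genes 9 were lower in plasma than naive cells, where 16.1% of all genes were. Between memory and naive cells limma called 0 of the 10 (2 had an unadjusted p under 0.05). In germinal center cells 7 were lower than in naive cells, beside 11.1% of all genes. That count went to 2 when the RNA quality of the arrays entered the fit, beside 723 of all 18193 genes. The fall in plasma cells was largest for Marchf1, at least 131-fold. Among the class II chains, on the brightest probe sets, it ran from under 1% of the naive level (H2-Ob) to between 18.9% and 29.2% of it (H2-Aa, H2-Eb1, H2-DMa and H2-Ab1). Cd74 was the exception and passed no test against naive cells.

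The promoters of these genes are shown as sequence, since most of the genes were lower in plasma than naive cells. No cause is read from them. RefSeq's table (GRCm38.p6) gave the windows searched for 7 of the 10 genes, from 250 bases before to 50 bases after the annotated start. No window was searched for Ciita, H2-Ab1 and Cd74. Cd74 was left out of the search, which does not mean that the table lacks a window for it. Both strands were searched for a Y box core, TGATTGG, and an X box, AACNNATGATG, whose letters were chosen with these sequences in view. The motifs do not overlap. A stretch of each matching promoter is printed 5′ to 3′ on the strand of the gene, with capitals for the matches.
H2-Oa (chr17:34092274-34092352, plus strand): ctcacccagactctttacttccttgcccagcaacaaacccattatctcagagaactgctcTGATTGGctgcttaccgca
H2-Ob (chr17:34238786-34238864, plus strand): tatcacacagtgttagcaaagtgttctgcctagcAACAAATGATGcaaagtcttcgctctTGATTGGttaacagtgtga
H2-DMb2 (chr17:34145097-34145175, plus strand): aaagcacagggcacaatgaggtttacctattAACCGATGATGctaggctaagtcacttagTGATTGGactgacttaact
H2-Aa (chr17:34287855-34287933, minus strand): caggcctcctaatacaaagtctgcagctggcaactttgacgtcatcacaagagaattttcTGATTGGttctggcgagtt
H2-Eb1 (chr17:34305746-34305824, plus strand): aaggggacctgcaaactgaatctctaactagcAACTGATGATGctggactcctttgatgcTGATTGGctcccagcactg

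The Y box letters were present in 5 of the 7 genes and in 7.82% of all 32851 promoter windows. The X box letters were present in 3 of the 7 (H2-DMb2, H2-Ob and H2-Eb1) and in 0.137% of all windows, and both together in 0.0274%. In those 3 promoters the first base of the X box lay 29, 26 and 28 bases before that of the Y box, in the order named. Neither string was in the windows of H2-DMa or Marchf1, which says only that these letters were not there. As the letters were chosen on these sequences, nothing is read from their share here against that in all windows. The matches describe sequence and do not show binding in these cells. On GRCm38.p6 the 7 class II members lie together on chromosome 17, from the start of H2-Oa at 34092379 to the end of H2-Eb1 at 34316674. Ciita lies on chromosome 16 (10480014 to 10531064) and Marchf1 on chromosome 8.

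Values are hybridisation intensities, and differences are log2 fold changes with the standard error of a linear model over all genes. Background was the brightest unspiked bacterial control of an array, which lay between 10.96 and 16.1, and 52.7% to 66.9% of genes exceeded it. Where no array of the lower subset did, the fold is a bound over background, written "at least". The threshold for a call was an adjusted p under 0.05. Nothing in the labels ties replicates to separate animals, so p-values measure only how far these samples spread, which may be technical. No probe set is compared with another in level, since probes differ in brightness. Of the B cell list 4 genes were measured. Ms4a1, Cd79b and Ptprc, the last not confined to B cells, were above background on every array. The dim Cd79a (11.6 to 14.9 in plasma cells) exceeded it on 2 of the 4 plasma arrays. The plasma cell gene Prdm1 was at 426 to 617 in plasma cells and at most 25.4 elsewhere. Other markers were not exclusive: Sdc1 was at 103 to 190.0 in naive cells and Jchain at 1419 to 2027 in germinal center cells. Bcl6 was at 2081 to 3061 in germinal center cells, 1174 to 1709 in naive cells and at background in plasma cells.

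The germinal center arrays stood apart in RNA quality. The 3' probe set of beta-actin divided by the middle one, a ratio that rises as labelled transcripts shorten, was 10.1, 17.6 and 6.11 in germinal center arrays 1 to 3, against 4.39 to 5.30 in naive, 5.47 to 6.91 in plasma and 4.15 to 5.33 in memory cells. The same ratio for GAPDH was 8.23 to 10.9 in germinal center, 9.44 to 12.0 in naive, 5.45 to 8.41 in plasma and 11.0 to 13.0 in memory cells. By GAPDH the plasma arrays thus lay below every naive and memory array. Only the actin ratio was used as a covariate.

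**Figure D1:**
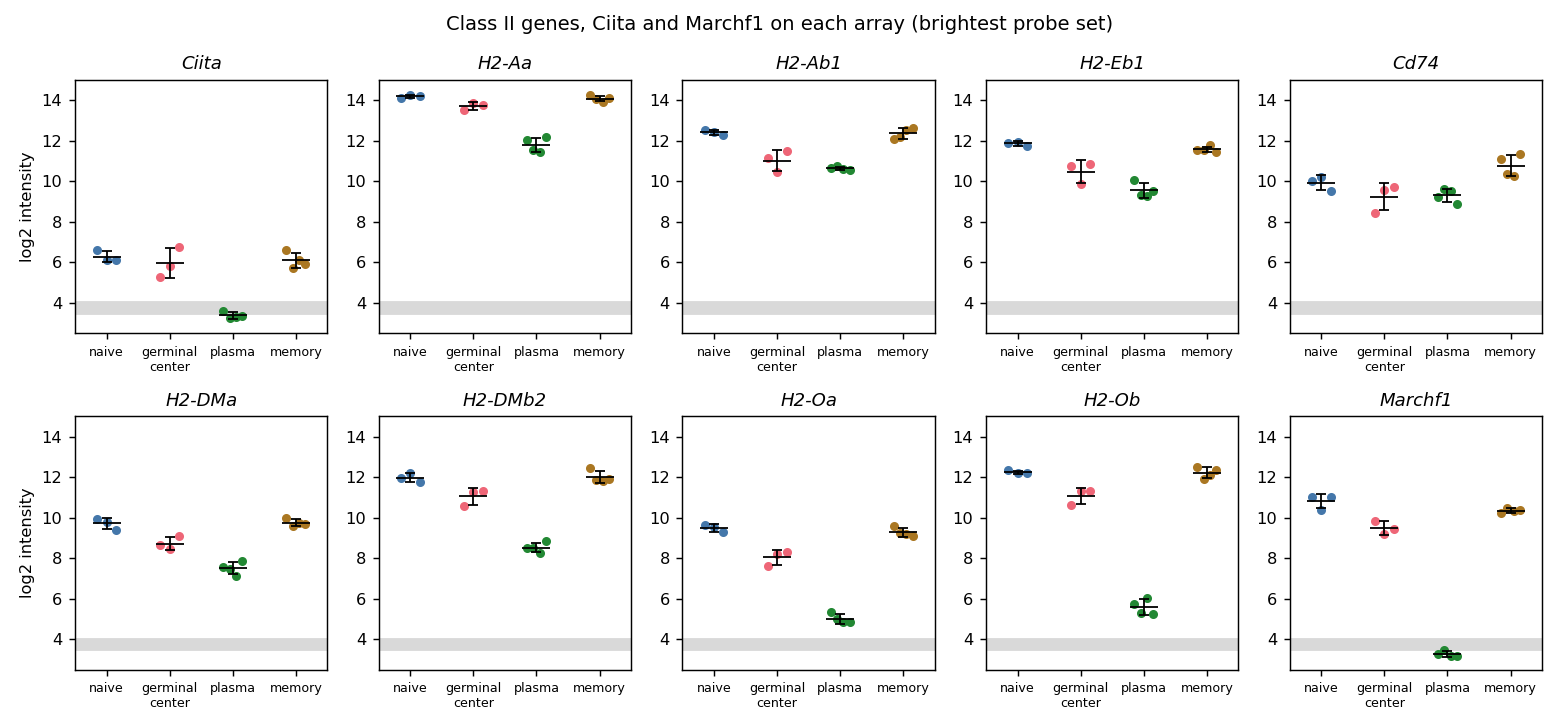
Log2 intensity of the brightest probe set of each gene (vertical axis) on each of the 14 arrays, by subset (horizontal axis). Points are arrays, bars are the mean and SD, and the grey band is the range of the arrays' background levels. Ciita and Marchf1 in plasma cells lie at background, while the remaining genes lie above it on every array.

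Ciita, the coactivator on which class II transcription depends, was detected in naive, germinal center and memory cells and was at background in plasma cells. Its intensity was 95.3, 67.9 and 69.3 in naive cells and 95.2, 52.7, 69.3 and 60.5 in memory cells. Germinal center cells gave 38.8, 56.6 and 107, and plasma cells 12.2, 9.40, 9.95 and 10.2. The plasma arrays were the only ones apart from the rest, and none of the 4 exceeded background. Plasma cells were at least 5.58-fold below naive cells (adjusted p = 2.04e-06), at least 4.49-fold below germinal center cells (adjusted p = 8.49e-06) and at least 4.93-fold below memory cells (adjusted p = 1.46e-06). The germinal center arrays spread widely around the naive ones, with a difference of -0.31 (95% confidence interval -0.97 to 0.34, adjusted p = 0.537). Its sign turned to 0.48 when germinal center array 3 alone was used. In bulk RNA, fewer cells with a transcript and less of it per cell cannot be told apart, here and below.

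The second probe set of Ciita, between 9.10 and 27.5 on all arrays, gave the same picture: at least 1.79-fold lower in plasma than naive cells and no call in germinal center cells (-0.24 ± 0.15, adjusted p = 0.328). The third was dimmer. It was called lower in germinal center cells (-0.82 ± 0.23, adjusted p = 0.0331), where 1 of 3 arrays exceeded background, and in plasma cells (-0.79 ± 0.22, adjusted p = 0.0171), where 2 of 4 did. Against naive cells the 3 probe sets of Ciita thus gave different calls for the germinal center and the same call for plasma cells. Between plasma and germinal center cells the third gave 0.02 (adjusted p = 0.964), and between plasma and memory cells -0.51 (adjusted p = 0.0811).

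H2-Aa and H2-Ab1 encode the alpha and beta chain of I-A, the class II molecule that presents peptide in C57BL mice. H2-Ab1 was at 5845, 5567 and 4872 in naive cells and at 4296, 4689, 5838 and 6366 in memory cells. It was at 2244, 1385 and 2834 in germinal center cells and at 1596, 1699, 1546 and 1490 in plasma cells. The naive and memory arrays overlapped, and both stood above all arrays of the other subsets. Germinal center cells held 38.2% of the naive level (-1.39 ± 0.22, adjusted p = 3.82e-04) and plasma cells 29.2% (-1.78 ± 0.21, adjusted p = 1.09e-05). Plasma and germinal center arrays overlapped and did not pass (-0.39, 95% confidence interval -0.83 to 0.06, adjusted p = 0.223). That difference passed at -0.67 without germinal center array 2 (adjusted p = 0.0114), the lowest of its subset. Both further probe sets of H2-Ab1 were called lower in germinal center cells (-1.93 ± 0.47 and -1.62 ± 0.39) and in plasma cells (-2.22 ± 0.44 and -2.10 ± 0.37).

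H2-Aa showed a smaller step into the germinal center. The brightest probe set read 17355, 19613 and 18719 in naive cells and 11692, 14887 and 13612 in germinal center cells. It read 4114, 2914, 2766 and 4588 in plasma cells and 19380, 17241, 15106 and 17503 in memory cells. Germinal center arrays lay below every naive array, at 71.9% of the naive level, but the difference was not called (-0.48 ± 0.19, adjusted p = 0.0950). Plasma cells held 18.9% of the naive level (-2.40 ± 0.18, adjusted p = 9.46e-08) and were also lower than germinal center cells (-1.92 ± 0.18, adjusted p = 1.22e-06).

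The size of the H2-Aa change depended on the probe set. For germinal center against naive cells the second probe set gave -0.58 ± 0.11 (adjusted p = 0.00238) and the third -0.94 ± 0.44 (adjusted p = 0.190). The fourth gave -2.32 ± 0.24 (adjusted p = 1.73e-05), from 303, 292 and 332 in naive cells to 51.6, 52.2 and 87.1 in germinal center cells. In plasma cells the 4 probe sets of H2-Aa, brightest first, gave -2.40, -1.75, -3.84 and -3.27, each called. The direction was the same in each, and the amount of H2-Aa lost in the germinal center is not settled by these probes.

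H2-Eb1 encodes the I-E beta chain, whose alpha chain partner H2-Ea is inactive in mice of the b haplotype. The single probe set read 3828, 3933 and 3394 in naive cells and 1701, 918 and 1830.3 in germinal center cells. It read 1057, 642, 613 and 726 in plasma cells and 2925, 2998, 3467 and 2737 in memory cells. As for H2-Ab1, the naive and memory arrays overlapped above all others. H2-Eb1 was at 38.2% of the naive level in germinal center cells (-1.39 ± 0.25, adjusted p = 9.62e-04) and at 20.0% in plasma cells (-2.32 ± 0.23, adjusted p = 2.18e-06). Plasma cells were lower than germinal center cells by the test (-0.94 ± 0.23, adjusted p = 0.00777), although plasma array 1 lay above germinal center array 2. H2-Ea, annotated as a transcribed pseudogene, stayed between 53.9 and 85.9 on its brightest probe set, with no contrast called. H2-Eb2, a class II beta gene with a restricted tissue range, was at 654 to 791 in naive cells and fell to 109.8 to 220.4 in plasma cells (-2.40 ± 0.22, adjusted p = 1.02e-06).

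Cd74, the invariant chain that blocks the peptide groove until the endosome, did not show the pattern of the chains it accompanies. Its probe set read 1035, 1191 and 728 in naive cells, 349, 751 and 827 in germinal center cells, and 603, 769, 729.6 and 474 in plasma cells. Memory cells read 2159, 1304, 1228 and 2567. The first 3 subsets overlapped, and every memory array stood above every other array. Plasma cells held 65.6% of the naive level (-0.61, 95% confidence interval -1.31 to 0.09, adjusted p = 0.191). The interval ends short of the falls estimated for H2-Aa, H2-Ab1 and H2-Eb1, a difference between genes that was not tested. Memory cells exceeded plasma cells (plasma minus memory -1.45 ± 0.30, adjusted p = 0.00165) and germinal center cells (1.52 ± 0.33, adjusted p = 0.00342). Against naive cells the memory level of Cd74 was higher by 0.84 ± 0.33 (95% confidence interval 0.14 to 1.54), which did not pass over all genes (adjusted p = 0.182). Cd74 had no second probe set, so this pattern rests on 1 probe set.

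H2-DMa and H2-DMb2 encode chains of H2-DM, which exchanges the invariant chain fragment for peptide. H2-DMa ranged from 685 to 981 in naive cells, 349 to 542 in germinal center cells, 142 to 237 in plasma cells and 765 to 1021 in memory cells. The germinal center level of H2-DMa was 50.2% of the naive one (-0.99 ± 0.21, adjusted p = 0.00356), and the plasma level 21.8% (-2.20 ± 0.20, adjusted p = 7.78e-07). The germinal center value of H2-DMa was called by the brighter of its probe sets only, the other giving -0.40 (adjusted p = 0.610), while both called it lower in plasma cells.

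H2-DMb2 read 4049, 4712 and 3474 in naive cells and 1543, 2460.1 and 2545 in germinal center cells. It read 367, 359, 306 and 457 in plasma cells and 5630.1, 3713, 3612 and 3818 in memory cells. The subsets were ordered without overlap except for naive and memory cells. Germinal center cells held 52.6% of the naive level of H2-DMb2 (-0.93 ± 0.23, adjusted p = 0.00920) and plasma cells 9.11% (-3.46 ± 0.21, adjusted p = 1.56e-08). The second probe set gave -0.88 and -3.54, both called. The third, at most 43.3 on any array, gave -0.87 (adjusted p = 0.0750) and -1.24 (called). Probe sets annotated to both H2-DMb2 and its neighbouring copy H2-DMb1 were left out, and cross-hybridisation between the copies was not tested.

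H2-Oa and H2-Ob encode H2-DO, the partner that holds H2-DM inactive, and they showed the steepest fall of the class II chains. H2-Ob read 5193, 4722 and 4671 in naive cells and 1584, 2552 and 2526 in germinal center cells. It read 53.4, 39.2, 66.5 and 37.7 in plasma cells and 5834, 3862, 4399 and 5295 in memory cells. Plasma arrays were still above background but held 0.986% of the naive level (-6.66 ± 0.22, adjusted p = 5.17e-11). Germinal center cells held 44.7% (-1.16 ± 0.24, adjusted p = 0.00287).

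H2-Oa moved the same way, from 793, 751 and 623 in naive cells to 195, 301 and 315 in germinal center cells and 40.4, 31.8, 28.5 and 29.2 in plasma cells. Memory cells read 781, 615, 591 and 545, overlapping the naive arrays. The germinal center level was 36.8% of the naive one (-1.44 ± 0.20, adjusted p = 1.33e-04) and the plasma level 4.47% (-4.48 ± 0.19, adjusted p = 4.04e-10). H2-Oa and H2-Ob have 1 probe set each, and a probe set annotated to both H2-Ob and Gm20506 was left out.

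Because DO acts on DM, their balance was read within each array as the mean log2 value of H2-Oa and H2-Ob minus that of H2-DMa and H2-DMb2, with the naive mean set to 0. The balance was -0.34 ± 0.22 (SD, n = 3) in germinal center cells, -2.75 ± 0.45 (SD, n = 4) in plasma cells and -0.14 ± 0.04 (SD, n = 4) in memory cells. The plasma arrays, between -3.33 and -2.27, lay far below the naive ones at -0.14 to 0.13. The difference from naive cells was thus larger for DO than for DM transcripts in all 4 plasma arrays. The mean of the I-A and I-E chains went the other way against the DM mean, at 0.66 ± 0.21 in plasma cells (SD, n = 4, 0.41 to 0.89). That value rested on H2-DMb2, at -3.46 in plasma against naive cells, and on the choice of probe sets. H2-DMa gave -2.20 there, beside -2.40 for H2-Aa, -1.78 for H2-Ab1 and -2.32 for H2-Eb1. Only the brightest probe sets entered the balances. For plasma against naive cells further probe sets gave -1.75, -3.84 and -3.27 for H2-Aa and -2.22 and -2.10 for H2-Ab1. For the DM genes they gave -2.13 (H2-DMa) and -3.54 and -1.24 (H2-DMb2). Whether the I-A and I-E genes fell less than the DM genes is not settled by these probes. In germinal center and memory cells that second balance was -0.12 ± 0.33 (SD, n = 3) and -0.18 ± 0.27 (SD, n = 4), with arrays that overlapped the naive range of -0.09 to 0.17. These balances were described and not tested.

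**Figure D2:**
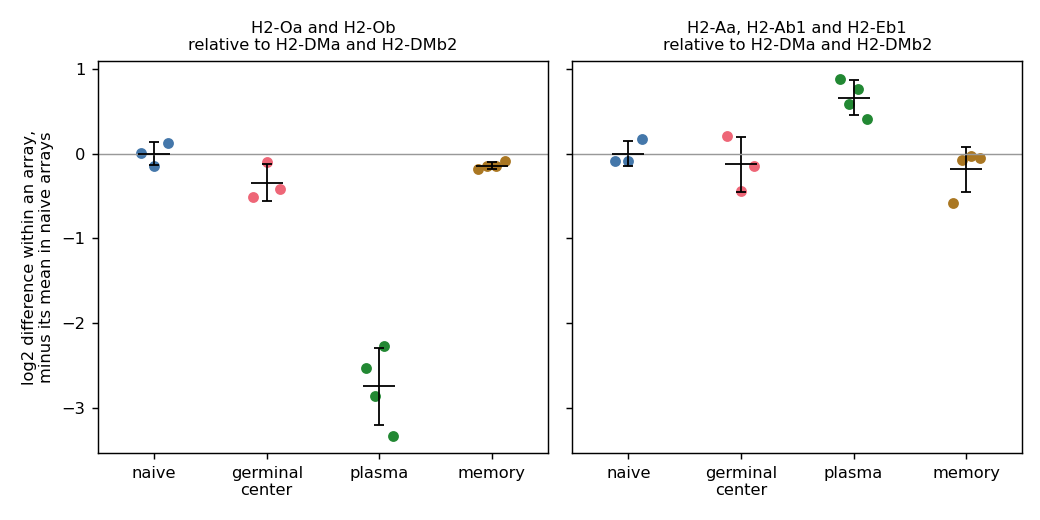
Log2 difference within each array between H2-DO and H2-DM genes (left) and between I-A and I-E genes and H2-DM genes (right), with the naive mean set to 0, by subset. Points are arrays and bars are the mean and SD. The plasma arrays lie between -3.33 and -2.27 on the left and between 0.41 and 0.89 on the right.

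Marchf1, the ligase that marks class II and CD86 for degradation, had the largest plasma difference of the 10 genes. It read 2068, 1354 and 2067 in naive cells and 932, 579 and 692 in germinal center cells. It read 9.66, 10.97, 8.97 and 9.00 in plasma cells and 1193, 1438, 1279.9 and 1321 in memory cells. No plasma array exceeded background, and every germinal center array lay below every naive and memory array. Marchf1 was at least 131-fold lower in plasma than in naive cells (adjusted p = 3.42e-12), and at least 52.5-fold lower than in germinal center cells (adjusted p = 2.33e-11). Germinal center cells held 40.1% of the naive level (-1.32 ± 0.19, adjusted p = 1.86e-04). The second probe set of Marchf1 gave -1.85 ± 0.44 (adjusted p = 0.0118) for the germinal center and at least 34.8-fold lower in plasma cells. The third exceeded background on 1 array of 14 and bears on neither.

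Counted over the set, 9 of 10 genes were called lower in plasma than naive cells, where 16.1% of all genes were. The median difference was -2.64, against 0.06 over all genes. In germinal center cells 7 of 10 were called lower than in naive cells, beside 11.1% of all genes, with a median of -1.08 against 0.06. That count was 2 with the actin ratio as a covariate (median -0.64) and 4 with germinal center array 3 alone (median -0.80). The 3 not called were Ciita, H2-Aa and Cd74. Between plasma and germinal center cells 8 of 10 were lower in plasma cells, beside 12.6% of all genes, the exceptions being H2-Ab1 and Cd74. By single probe set, 20 of 22 were called lower in plasma than naive cells, beside 12.3% of all probe sets, and 14 of 22 in germinal center cells, beside 7.61%.

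No gene of the set separated memory from naive cells by the test. limma called 0 of 10 genes between them, beside 5.57% of all genes in either direction. Cd74 and Marchf1 had an unadjusted p under 0.05 (2 of 10), and 0 of 10 were called when the variance was fitted with a trend. Intervals of the brightest probe sets were narrow for H2-Aa (-0.48 to 0.27), H2-DMa (-0.38 to 0.46) and H2-Ab1 (-0.49 to 0.40). That of Ciita was wider (-0.79 to 0.43). Further probe sets of H2-Ab1 gave -0.87 (-1.81 to 0.07) and -0.99 (-1.78 to -0.19). Those of H2-Aa gave -0.03, -0.07 and -0.55 (-1.04 to -0.07), and that of H2-DMa -0.14. Of the 22 probe sets of the 10 genes 0 were called. Marchf1 was lower in memory than naive cells by 0.46 on the log2 scale (95% confidence interval of the difference -0.85 to -0.07, adjusted p = 0.187), with overlapping arrays. Against germinal center cells 8 of 10 genes were called higher in memory cells, beside 10.96% of all genes, led by Cd74 (1.52), H2-Ab1 (1.34 ± 0.21, adjusted p = 2.73e-04) and H2-Oa (1.25 ± 0.19, adjusted p = 2.48e-04). Against plasma cells 10 of 10 were higher in memory cells, with 15.96% of all genes called lower in plasma than memory cells. The count against germinal center cells was 1 with the actin covariate, beside 633 of all 18193 genes called higher. It was 6 with second probe sets, beside 1560 of all genes. With germinal center array 3 alone the median of the set was 0.80. Of single probe sets 11 of 22 were called higher in memory than germinal center cells, beside 9.59% of all. The contrasts share arrays and do not stand as separate evidence.

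The remaining differences between the immunized subsets were graded by gene. Plasma cells were below germinal center cells in H2-DMa (-1.20 ± 0.20, adjusted p = 3.26e-04) and H2-DMb2 (-2.53 ± 0.21, adjusted p = 5.06e-07). The DO genes followed, with H2-Oa at -3.04 ± 0.19 (adjusted p = 2.88e-08) and H2-Ob at -5.50 ± 0.22 (adjusted p = 3.96e-10). Against memory cells plasma cells held 20.4% of H2-Aa, 30.2% of H2-Ab1, 24.6% of H2-Eb1 and 36.7% of Cd74. For the loading genes the plasma share of the memory level was 21.2% for H2-DMa, 8.94% for H2-DMb2, 5.12% for H2-Oa and 1.00% for H2-Ob, and Marchf1 was at least 95.1-fold lower. All of these arrays were apart from the memory arrays. Memory cells exceeded germinal center cells in H2-Eb1 (1.09 ± 0.23, adjusted p = 0.00309), H2-DMa (1.03 ± 0.20, adjusted p = 0.00145) and H2-DMb2 (0.95 ± 0.21, adjusted p = 0.00431). H2-Ob (1.14 ± 0.22, adjusted p = 0.00177) and Marchf1 (0.86 ± 0.18, adjusted p = 0.00300) were also higher. Second probe sets did not pass for H2-DMa (0.26, adjusted p = 0.712), H2-Ab1 (1.06, adjusted p = 0.119) and Marchf1 (1.12, adjusted p = 0.0781), and the third of Marchf1 gave -0.35 (adjusted p = 0.228). Ciita (0.13, 95% confidence interval -0.48 to 0.75) and H2-Aa (0.37, -0.01 to 0.75) were not called between memory and germinal center cells.

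**Figure D3:**
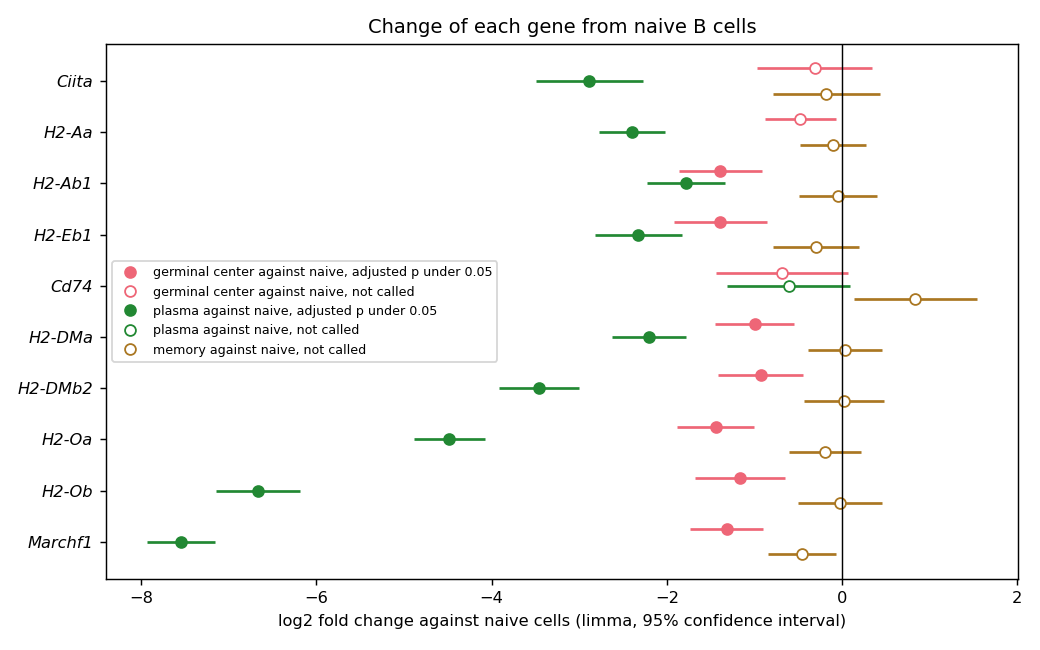
Log2 fold change of each gene against naive cells (horizontal axis) with its 95% confidence interval, for germinal center, plasma and memory cells. Filled points passed an adjusted p under 0.05 and open points did not. All memory points are open, and the plasma points run from -0.61 for Cd74 to -7.54 for Marchf1, whose plasma level is at background.

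**Figure D4:**
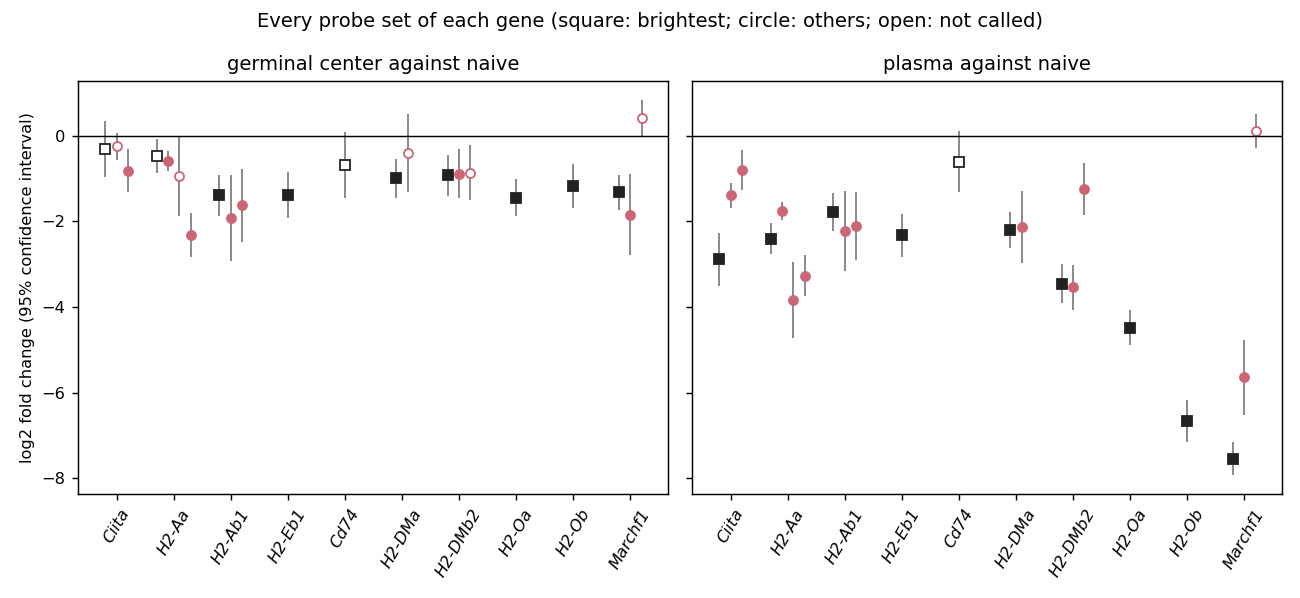
Log2 fold change with its 95% confidence interval (vertical axis) for each of the 22 probe sets, by gene, in germinal center (left) and plasma cells (right) against naive cells. Squares are the brightest probe set of a gene, circles the others, and open symbols were not called. The probe sets of H2-Aa run from -0.48 to -2.32 on the left.

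The germinal center contrasts were repeated with RNA quality in view. With the actin ratio as a covariate 2 of 10 genes remained called lower in the germinal center, beside 723 of all 18193 genes. They were H2-Oa (-1.36, adjusted p = 0.0168) and Marchf1 (-1.13, adjusted p = 0.0321). H2-Ab1 then gave -0.65 (adjusted p = 0.105) and H2-Eb1 -0.64 (adjusted p = 0.236). With germinal center array 3 alone, a choice made after seeing the data, 4 genes were called: H2-Ab1, H2-Eb1, H2-Oa and Marchf1. H2-DMb2 (-0.97, adjusted p = 0.140) and H2-Ob (-1.26, adjusted p = 0.0587) lost the call with the covariate while the difference itself was no smaller. That of H2-DMa was smaller (-0.62, adjusted p = 0.319). With array 3 alone H2-DMa gave -0.64, H2-DMb2 -0.67 and H2-Ob -0.94, none called. For memory against germinal center cells H2-Oa remained called with the covariate. There Cd74 gave 1.41 (adjusted p = 0.154), H2-DMb2 1.00 (adjusted p = 0.113) and H2-Ob 1.25 (adjusted p = 0.0564), close to their values without it, while H2-Ab1 gave 0.57 and H2-Eb1 0.30. Whether RNA quality has a part in these differences was not tested. Plasma against naive cells kept 9 calls with the covariate.

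**Figure D5:**
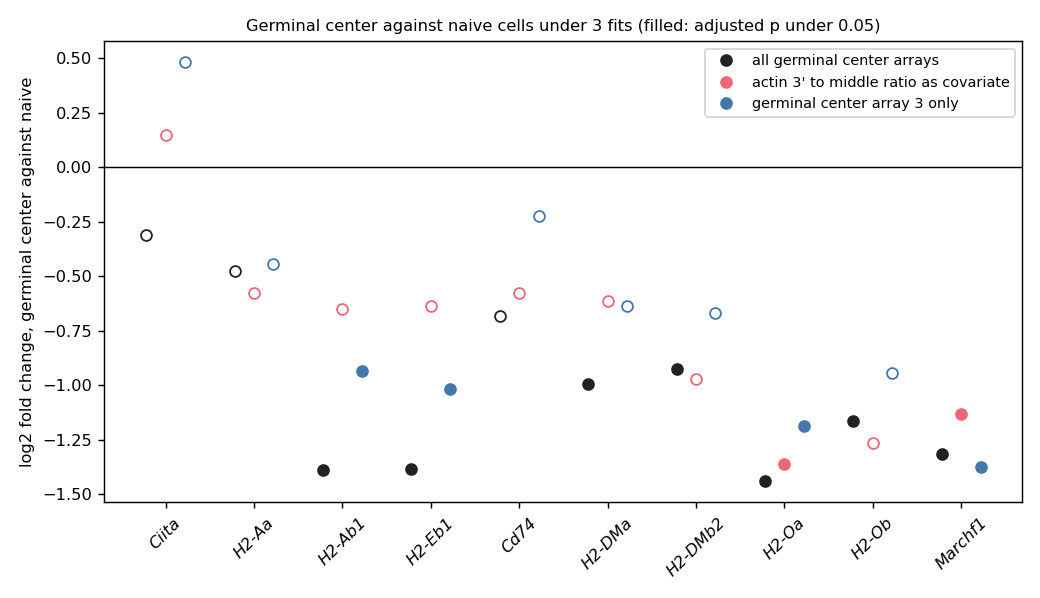
Log2 fold change of germinal center against naive cells (vertical axis) for each gene under the fit to all arrays, with the actin ratio as covariate, and with germinal center array 3 alone. Filled points passed an adjusted p under 0.05. H2-Oa and Marchf1 are filled under each of the 3 fits.

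Other cell types that carry class II were looked for through their markers. Of 8 measured dendritic cell genes Xcr1 and Clec10a exceeded background on no array, and Itgax lay at 9.19 to 16.1 in all subsets. Flt3 and Siglech exceeded background on every array. Zbtb46 did so on 3 of 4 memory arrays and on all arrays of the other subsets. The summed intensity of the 8 was 105 to 119 in naive, 293 to 343 in germinal center, 125 to 158 in plasma and 105 to 129 in memory cells. Flt3 made most of the germinal center sum, at 178 to 238. Of the 8 genes 1 was called higher in germinal center than naive cells, beside 8.37% of all genes. In plasma against naive cells it was also 1 of 8, beside 14.2%. The 9 macrophage genes summed to 151 to 182 in naive, 149 to 174 in germinal center, 145 to 319.9 in plasma and 138 to 151 in memory cells. In plasma against naive cells 5 of 9 were called higher, beside 14.2% of all genes, and 1 lower, beside 16.1%. Csf1r was at 30.8 to 145 in plasma cells and Lyz2 at 15.2 to 93.1, with a geometric mean of 26.8. Adgre1 was at 45.1 to 62.4 in naive cells and at 18.5 to 38.0 in plasma cells. Mertk exceeded background on no array. The part of other cell types in the remaining class II signal of plasma cells was not tested. The 4 measured genes of the B cell list summed to 24856 to 27148 in naive and 13457 to 19298 in germinal center cells. The sum was 6432 to 9815 in plasma and 22887 to 28139 in memory cells. It includes Ptprc, which is not confined to B cells, at 10802 to 13568 in naive and 4145 to 6046 in plasma cells. Of the 4 genes 2 were called lower in germinal center than naive cells, beside 11.1% of all genes. All 4 were called lower in plasma than naive cells, beside 16.1%, Ms4a1 from 7699 to 8206 down to 514 to 1141.

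Part of the machinery that holds Ciita at class II promoters was lower in plasma cells too. Of the 7 genes for RFX, NF-Y and CREB, 4 were called lower in plasma than naive cells, beside 16.1% of all genes, and 0 higher, with a median of -0.79. Creb1 fell to 21.4% (-2.22 ± 0.26, adjusted p = 1.01e-05) and Rfx5, which encodes an RFX subunit, to 31.0% (-1.69 ± 0.28, adjusted p = 2.54e-04). Rfxank (-1.22 ± 0.19) and Nfyc (-0.74 ± 0.18) also passed. Rfxap, also an RFX gene, did not (-0.24 ± 0.30, adjusted p = 0.605). In germinal center cells 0 of the 7 were called by limma (1 had an unadjusted p under 0.05). In memory cells 1 of 7 was lower than in naive cells, beside 3.26% of all genes, Nfyb at -1.62 ± 0.36 (adjusted p = 0.0163). Plasma cells had 3 of 7 lower than germinal center cells, among them Creb1 (-1.91 ± 0.26) and Rfx5 (-1.63 ± 0.28), beside 12.6% of all genes. It was 4 of 7 against memory cells, beside 15.96%.

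Among factors known to act on Ciita, 9 of 10 were measured and 7 were called in plasma against naive cells, beside 30.3% of all genes in either direction. Prdm1, which encodes the repressor Blimp-1, rose by 5.58 ± 0.21 (adjusted p = 1.55e-10), from 9.85 to 13.0 in naive cells to 426 to 617. Irf8, an activator in B cells, fell from 3451 to 3899.7 down to 46.8 to 70.3 (-6.03 ± 0.24, adjusted p = 2.34e-10). Bcl6, the germinal center repressor, fell at least 103-fold. Irf4 rose (2.19 ± 0.31, adjusted p = 6.98e-05). In plasma cells 2 of 9 were thus higher, beside 14.2% of all genes, and 5 of 9 lower, beside 16.1%. In germinal center cells Irf4 (-3.46 ± 0.33, adjusted p = 3.20e-06) and Irf1 (-2.37 ± 0.22, adjusted p = 2.26e-06) fell and Bcl6 rose (0.85 ± 0.26, adjusted p = 0.0310), so that 2 of 9 were lower, beside 11.1% of all genes, and 1 higher, beside 8.37%. In memory cells Prdm1 (0.89 ± 0.21, adjusted p = 0.0251) and the repressor Zbtb32 (0.67 ± 0.14, adjusted p = 0.0135) rose and Bcl6 fell (-1.85 ± 0.24, adjusted p = 3.50e-04). Prdm1 was then at 14.6 to 25.4, low beside its level in plasma cells.

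The proteases of the loading compartment moved in both directions. Of 8 genes for endosomal processing, 4 were called higher in plasma than naive cells, beside 14.2% of all genes, and 1 lower, beside 16.1%, with a median of 0.72. Ctsb rose from 85.6 to 112 in naive cells to 667 to 889.5 in plasma cells (3.00 ± 0.17, adjusted p = 5.33e-09). Ctsd (1.35 ± 0.41), Sppl2a, which cuts the remnant of the invariant chain (1.14 ± 0.26), and Ctsz (1.13 ± 0.13) also rose. Ctss, the cathepsin that trims the invariant chain in B cells, fell to 62.2% in plasma cells (-0.69 ± 0.17, adjusted p = 0.00607) and to 45.9% in germinal center cells (-1.12 ± 0.18, adjusted p = 4.14e-04). Ctss was higher in memory than germinal center cells (0.99 ± 0.17, adjusted p = 6.36e-04) and was not called between memory and naive cells (-0.14). Ctsl fell in germinal center cells (-1.67 ± 0.24), to a level above background on 1 of 3 arrays. In memory against naive cells 1 of 8 was called higher (Ctsz, 0.61 ± 0.13, adjusted p = 0.0124), beside 2.31% of all genes, and 1 lower (Ctsl, -1.63 ± 0.22, adjusted p = 5.67e-04), beside 3.26%.

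Genes that act with or beside Marchf1 at the cell surface came next. CD86 is a costimulatory ligand that Marchf1 also degrades, and CD83 opposes Marchf1. Of 6 such genes, 2 were called lower and 1 higher in plasma than naive cells, 3 in all where 30.3% of all genes were called, and nothing is read from that count. Cd83 (-5.55 ± 0.30, adjusted p = 3.59e-09) and Cd86 (-2.73 ± 0.19, adjusted p = 5.74e-08) fell, with Cd83 at 83.3 to 123 there after 4142 to 4973. Cd86 rose in both other subsets, by 2.61 ± 0.20 in germinal center cells (adjusted p = 4.09e-07) and by 2.68 ± 0.19 in memory cells (adjusted p = 1.51e-06). Marchf8, a relative of Marchf1, was at least 1.65-fold higher in plasma than naive cells (adjusted p = 2.72e-05), at 16.8 to 26.7. Marchf3 was lower in memory than naive cells (-2.43 ± 0.36, adjusted p = 9.35e-04).

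Across the 14 arrays the log2 values of most class II genes ran in parallel; the arrays share the split between plasma cells and the rest. Pearson's r was 0.99 for H2-Oa with H2-Ob, 0.99 for H2-Ob with Marchf1 and 0.97 for Ciita with H2-Ob. It was lower for Ciita with H2-Ab1 (0.75). Cd74 had the lowest values, from 0.48 with Marchf1 to 0.70 with H2-Ab1. Among 12319 genes above background on at least 3 arrays, the closest to Ciita in pattern were the kinase gene Csk (r = 0.99), Spib, which encodes an Ets factor (0.98), and Unc119 (0.98). Closest to H2-Ab1 were Tk2 (0.99) and Mppe1 (0.98), closest to H2-DMa were Ccdc69 and the proton channel gene Hvcn1 (0.98 each), and closest to Marchf1 were Rasgrp1, the inhibitory receptor gene Btla, Sorl1, Evl and the complement receptor gene Cr2, each over 14 arrays at 0.99 to 1.00. These are descriptions, with no test.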

How the data were processed

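Each sample gave 1 array of total RNA, labelled with biotin. The deposited values are intensities on a linear scale, 1 for each probe set on an array, which the authors made with RMA (version not given), per the submitters' processing notes. All were positive and were taken to log2 as they stood. Of 45101 probe sets 64 were controls, 34945 had 1 gene symbol, 932 several and 9160 none in the platform annotation, whose symbols were checked by Entrez number (34741 matched, 0 changed). Only probe sets with 1 symbol were used. Of the 18193 genes 9010 had several, and the brightest represented the gene. limma 3.58.1 in R 4.3.3 was fitted to all 14 arrays with 1 mean per subset (10 residual degrees of freedom) and eBayes without trend. Tests were two-sided and adjusted by Benjamini-Hochberg over all genes within each of 6 contrasts. The fit was tested on simulated data. A second fit took each of the 45037 probe sets that are not controls singly and gave the values of further probe sets. Background used 27 bacterial controls. Alternatives covered scaling, dim genes, probe set, variance, arrays, replicate block, RNA quality and threshold. All 10 genes were named, with up to 4 of the largest called changes of each pathway list and contrast, and Ctss in plasma cells, chosen after its value was seen. The genes and lists were chosen with earlier results of these data known. Labels name no batch, and precision is limited by the number of arrays. Tables and figures used pandas 2.3.3 and matplotlib 3.10.9 in Python 3.11.15.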

Additional observations from a re-analysis of the deposited data

Results flagged for a closer look

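Memory array 1 stood apart for H2-DMb2, the beta chain gene of H2-DM. It read 5630.1, against 3612 to 3818 on the other 3 memory arrays, and on the log2 scale its gap to the nearest of them was 0.875 of the range of the 4 arrays, above the value that marks an outlier among 4. In all 20 groups of 4 arrays were examined, and chance marks about 1 group in 20. The same array was also the highest memory array for Ciita (95.2), H2-Aa (19380), H2-DMa (1021), H2-Oa (781) and H2-Ob (5834), by smaller gaps, and the lowest for H2-Ab1 (4296) and Marchf1 (1193). Without it H2-DMb2 in memory against naive cells was -0.12 (adjusted p = 0.876), compared with 0.03 for all arrays.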

How the results depend on the processing

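Of 1530 alternative values of single genes, 1467 kept their direction and side of the threshold, 24 lost a call, 7 gained one and 32 changed sign, 0 of these in a called result. Leaving out any 1 array kept the counts of called genes: 7 (germinal center against naive), 9 (plasma against naive), 0 (memory against naive), 8 (memory against germinal center) and 10 (plasma against memory). Plasma against germinal center gave 8, or 9 without germinal center array 2, with the covariate or with germinal center array 3 alone. With the actin ratio as covariate the counts were 2 (germinal center against naive) and 1 (memory against germinal center), and with germinal center array 3 alone, added after seeing the data, 4 and 3.

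Signs changed in small differences. For memory against naive cells they were H2-Ob 0.020 by quantile normalization, H2-DMa -0.020 and H2-DMb2 -0.034 centred on the median, and Ciita 0.0073, H2-Aa 0.080, H2-Ab1 0.14 and H2-Ob 0.16 centred on bright genes. Second probe sets gave H2-DMa -0.14 and H2-DMb2 -0.0018. Leaving out 1 array gave ranges of -0.14 to 0.045 for H2-Ab1, -0.12 to 0.082 for H2-Ob, -0.11 to 0.15 for H2-DMa and -0.12 to 0.14 for H2-DMb2. In Ciita the germinal center difference from naive ran from -0.71 to 0.023 without 1 array, and was 0.15 with the covariate and 0.48 with array 3 alone. Memory against germinal center ran from -0.20 to 0.53, and was -0.35 and -0.66. For Cd74 in plasma against germinal center cells the range was -0.32 to 0.31, and -0.39 with array 3 alone. The cause was not tested.

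With the replicate number as a block the counts stayed at 7, 9, 0, 8, 8 and 10, and signs changed for H2-DMa (-0.012), H2-DMb2 (-0.0073) and H2-Ob (0.012) in memory against naive cells. The labels do not say that the numbers pair the samples. Across 19 pairs of arrays with one number the correlation ran from -0.32 to 0.25, and 6 pairs exceeded 0.1. Of the arrays 3 correlated best with their own number. With so few arrays per subset this check cannot exclude a pairing.

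H2-Aa in germinal center against naive cells was called when arrays were centred on the median (-0.61, adjusted p = 0.0149), and H2-Ab1 in plasma against germinal center cells with the covariate (-0.87, adjusted p = 0.00297). Centring on bright genes moved the median of all genes to 0.24, 0.30 and 0.15 in the germinal center, plasma and memory contrasts with naive cells, with the set at -0.90, -2.40 and 0.11. The share of higher genes among all calls then went from 43.0%, 46.8% and 41.5% to 57.6%, 67.4% and 68.2%. Centred on the median it was 30.2% and 34.1% in the first 2, and 55.2% in the third by quantile normalization. Counts over all genes moved by more than 1.5 times as follows. In germinal center against naive cells 3542 became 2258 at an adjusted p under 0.01, 2256 at 2-fold, 6178 over probe sets, 1540 with the covariate and 2043 with array 3. In memory against naive cells 1014 became 442, 597 and 1772 under the first 3, 596 with a floor of 16, 626 with second probe sets, and 603 and 624 without naive arrays 2 and 3. In memory against germinal center cells 4084 became 2661, 2458, 8162, 1779 and 2288 under the same 5. Plasma against naive, germinal center and memory cells went from 5517, 4331 and 6035 to 3393, 2727 and 3596 at 2-fold, and to 10355, 7824 and 12781 over probe sets.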
